A study of Mus musculus with 12 samples.

Results

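The plasminogen activator system was followed here through 5 genes in the mouse retina. They are Plat, which encodes tissue-type plasminogen activator (tPA), Plau, which encodes urokinase (uPA), Plaur, which encodes the urokinase receptor, and Serpini1 and Serpine2, which encode the protease inhibitors neuroserpin and protease nexin-1. Members were the entries of the deposited tables whose Ensembl identifier carries one of these symbols in the GENCODE vM21 annotation. All 5 were found among 54532 gene identifiers, and 3 of them (Plat, Serpini1 and Serpine2) had enough counts to be among the 18299 genes that were tested.

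Retinal RNA came from C57BL/6 wild-type female mice at 13 weeks of age, with 3 libraries in each of 4 groups. SHAM mice were the control group. MOG mice were immunized with a peptide of myelin oligodendrocyte glycoprotein in complete Freund's adjuvant and received pertussis toxin, which induces experimental autoimmune encephalomyelitis (EAE) with optic neuritis. GB20 and GV16 mice carried the same immunization and were then needled repeatedly under anaesthesia at the acupoint GB20 or at the control acupoint GV16. Each group held 2 or 3 mice in an experiment that was done 3 times, with RNA taken per group, so a library may hold the retinas of several mice. Whether SHAM and MOG mice received the anaesthesia and whether SHAM mice received the adjuvant is not given in the sources used here. The p-values below therefore measure the spread between libraries, and needling and its anaesthesia cannot be told apart.

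tPA and uPA are secreted serine proteases that cleave the zymogen plasminogen into plasmin, a broad protease of fibrin and of extracellular matrix. uPA acts mainly at the cell surface, where it is bound by its receptor, while tPA is the main activator in neural tissue, where it also acts on substrates other than plasminogen. Neuroserpin is an inhibitor of tPA that is expressed mostly by neurons, and protease nexin-1 inhibits thrombin as well as both activators. In the retina the balance of tPA and its inhibitors has been studied in connection with ganglion cell loss and with the breakdown of matrix after injury.

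Rod photoreceptor markers were abundant as the retinal label implies, 5 of them summing to between 9395 and 10750 FPKM (read fragments scaled by exon length and by sequencing depth) in the 12 libraries. Total counts per library lay between 15860278 and 19194280. Of 8 retinal ganglion cell markers, 7 were lower in MOG than in SHAM at an adjusted p under 0.05 by edgeR. The number was 7 in GV16 vs. SHAM and 3 in GB20 vs. SHAM. These comparisons called 1.34%, 0.656% and 0.344% of all genes tested, in that order. At an unadjusted p under 0.05 by edgeR, 7 of the 8 markers passed in each of them. In GB20 vs. MOG and in GB20 vs. GV16, 0 of the 8 were called.

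On the FPKM scale, which divides by gene length and so allows genes to be ordered, Serpini1 was the most abundant member in each group. Its mean over all 12 libraries was 9.75 FPKM, followed by Plat at 2.06 FPKM, Serpine2 at 0.868 FPKM, Plau at 0.102 FPKM and Plaur at 0.059 FPKM. The ranges of the first 3 over single libraries did not touch each other, at 9.04 to 10.3 FPKM for Serpini1, 1.51 to 3.24 FPKM for Plat and 0.676 to 0.999 FPKM for Serpine2. Plau at 0.026 to 0.208 FPKM and Plaur at 0.023 to 0.186 FPKM overlapped almost completely, so the order of these last members was not resolved. The inhibitor neuroserpin was thus carried by more transcript than both activators together in each of the 12 libraries.

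Plat lies on the plus strand of chr8:22757727-22782844 (GRCm38), has 3 annotated transcripts with 6241 bases of merged exon, and shares no exonic base with another gene. Plau lies on the plus strand of chr14:20836660-20843385, with 2 transcripts, 2367 exonic bases and likewise no exonic overlap. Both are trypsin-type proteases, and a coding stretch is shown that begins with the motif around the active-site serine, which the activators have in common. The lines give the first 66 bases of the last coding exon, exon 14 of Plat (chr8:22781948-22782013) and exon 11 of Plau (chr14:20842274-20842339), from the GENCODE vM21 transcripts on GRCm38, written 5′ to 3′ on the plus strand. Capitals mark the 18 bases that encode the conserved motif around the active-site serine.
Plat: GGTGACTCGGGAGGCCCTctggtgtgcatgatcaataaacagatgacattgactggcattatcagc
Plau: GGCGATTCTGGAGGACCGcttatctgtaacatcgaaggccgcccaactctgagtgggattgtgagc
In both genes the motif begins at the exon's first base. Over the 66 bases the genes share 39 identical positions (59.1%), and 13 of the 18 motif bases are identical.

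Plat was higher in the retinas of MOG mice than in those of SHAM mice. The 3 SHAM libraries held 157, 166 and 201 Plat counts, and the 3 MOG libraries held 317, 317 and 340. In CPM, counts scaled to a common library size with a trimmed mean correction (TMM), SHAM libraries lay at 9.51, 9.76 and 11.2 CPM and MOG libraries at 17.7, 19.5 and 20.4 CPM. Every MOG library was above every SHAM library, an order that 7.87% of all genes tested showed. Mean levels were 1.61 ± 0.140 FPKM in SHAM (SD, n = 3) and 3.05 ± 0.207 FPKM in MOG (SD, n = 3).

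The log2 fold change of Plat, MOG vs. SHAM, was 0.92 with a standard error (SE) of 0.12, a 1.89-fold difference with a 95% interval of 1.60 to 2.24 (edgeR quasi-likelihood test, Benjamini-Hochberg adjusted p = 0.000104). Of all genes tested, 1.34% were called in this comparison and 0.568% were called higher. Plat was 1 of 3 tested members to pass, and it stood at rank 13 by p among 18299 genes. In bulk retina, more cells that express Plat and more Plat RNA in each cell cannot be told apart.

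**Figure D1:**
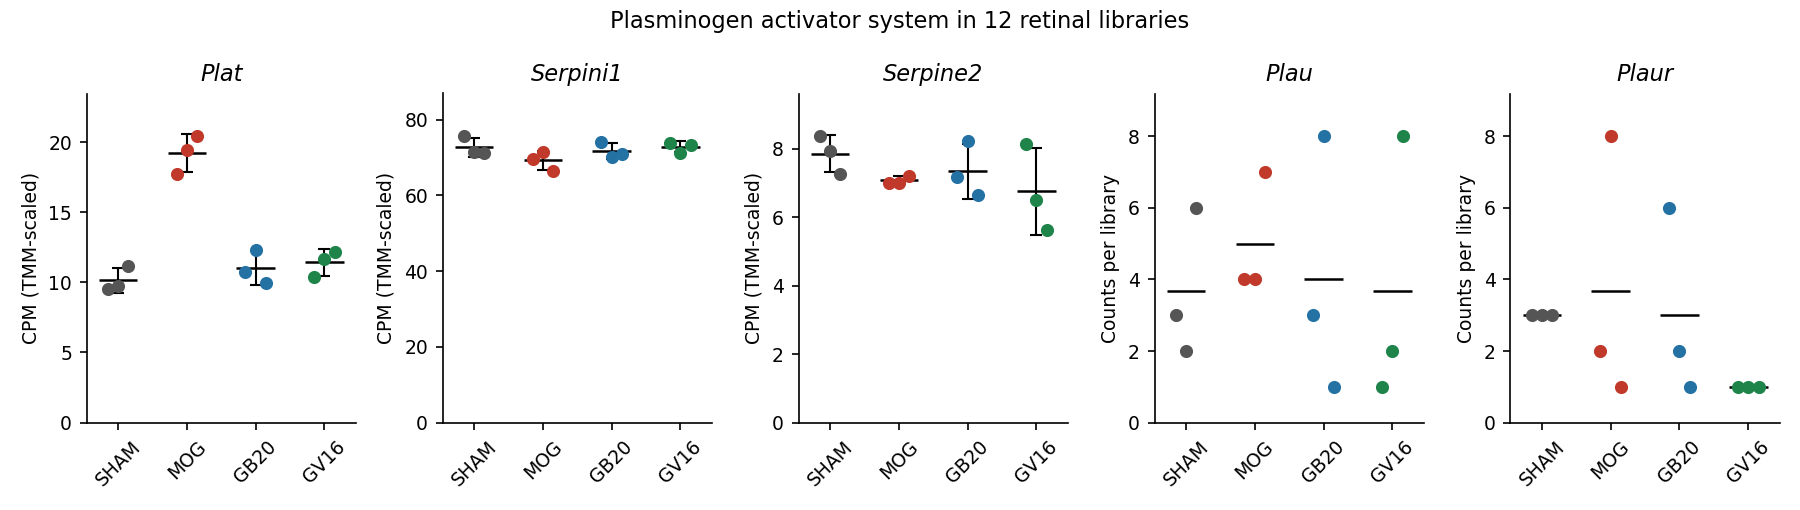
Each point is 1 library in the groups SHAM, MOG, GB20 and GV16, in TMM-scaled CPM for Plat, Serpini1 and Serpine2 and in counts per library for Plau and Plaur. Horizontal bars are group means and, in the CPM panels, error bars are the SD over 3 libraries. The 3 MOG libraries of Plat, at 17.7 to 20.4 CPM, stand above the other 9, at 9.51 to 12.3 CPM, while groups sit at like heights for Serpini1 and Serpine2.

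Plat was lower in GB20 mice than in MOG mice. The GB20 libraries held 209, 203 and 163 counts, or 10.8, 12.3 and 9.93 CPM, and each was below all 3 MOG libraries, as was the case for 7.71% of all genes. The mean in GB20 was 1.75 ± 0.195 FPKM (SD, n = 3). The log2 fold change, GB20 vs. MOG, was -0.80 with an SE of 0.12, so that the level in MOG was 1.74-fold that in GB20 (95% interval 1.47 to 2.06, adjusted p = 0.00153 by edgeR). In this comparison 0.24% of all genes were called and 0.142% were called lower. Plat, again the 1 member of 3 to pass, stood at rank 7 by p.

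Plat was also lower in mice needled at the control acupoint. The GV16 libraries held 167, 182 and 197 counts, or 10.4, 11.7 and 12.2 CPM, and did not overlap with the MOG libraries either, an order seen in 6.45% of all genes. The mean in GV16 was 1.82 ± 0.148 FPKM (SD, n = 3). The log2 fold change, GV16 vs. MOG, was -0.75 with an SE of 0.12, and the level in MOG was 1.68-fold that in GV16 (95% interval 1.42 to 1.99, adjusted p = 0.00434 by edgeR). Here 0.164% of all genes were called and 0.0984% were called lower, and Plat, the 1 member of 3 to pass, stood again at rank 7.

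The 3 comparisons above share the MOG libraries, so they are not independent of each other. When the FPKM values were tested with limma in place of the counts, both needled groups lost the call, at adjusted p of 0.0546 to 0.0831 for GB20 vs. MOG and 0.127 to 0.166 for GV16 vs. MOG. These fits, on log2(FPKM + 1), on log2(FPKM + 0.1) and on log2(FPKM + 1) without a filter, called few genes of any kind. In that order they called 8, 10 and 14 genes in GB20 vs. MOG and 6, 6 and 10 in GV16 vs. MOG. The genes tested were 23204, 23204 and 34538. The main edgeR fit called 44 and 30 of 18299. Without GV16 replicate 1, the log2 fold change of GV16 vs. MOG was -0.68 and its adjusted p was 0.0519.

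Plat did not differ detectably between the needling sites. The difference of GB20 and GV16 was -0.05 on the log2 scale, with a 95% interval of -0.31 to 0.20 (adjusted p = 0.9999 by edgeR). In this comparison 0.00546% of all genes were called, which is 1 gene, and 536 genes had an unadjusted p under 0.05 in edgeR. Of the 3 tested members 0 were called and 0 had an unadjusted p under 0.05.

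Against SHAM, the needled groups were close for Plat, without being shown to be equal. GB20 vs. SHAM gave a log2 fold change of 0.12 with a 95% interval of -0.14 to 0.37 (adjusted p = 0.876 by edgeR), in a comparison that called 0.344% of all genes. GV16 vs. SHAM gave 0.17 with an interval of -0.08 to 0.42 (adjusted p = 0.654 by edgeR), in a comparison that called 0.656%. Both intervals leave room for a level somewhat above that of SHAM. In each of these comparisons 0 of 3 tested members were called and 0 had an unadjusted p under 0.05.

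**Figure D2:**
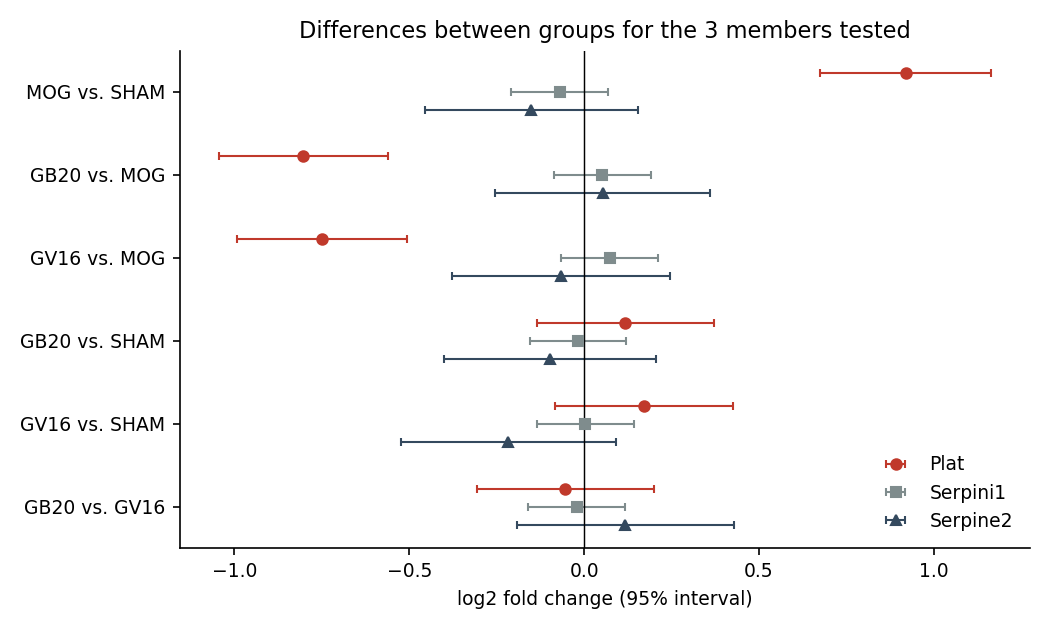
Log2 fold changes (x axis) of Plat, Serpini1 and Serpine2 in the 6 comparisons (y axis), with 95% intervals from the edgeR fit. The interval of Plat is clear of 0 in MOG vs. SHAM, at 0.68 to 1.16, and in both needled groups vs. MOG, and it spans 0 in the other 3 comparisons, whereas the intervals of both serpins span 0 in all 6.

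Plau, the other activator, was scarcely present. The SHAM libraries held 3, 2 and 6 counts, the MOG libraries 4, 4 and 7, the GB20 libraries 3, 8 and 1, and the GV16 libraries 1, 2 and 8. The groups overlapped throughout, and the gene did not pass the filter on low counts. Summed over the 3 libraries, Plau had 15 counts in MOG and 11 in SHAM, a depth-scaled ratio of 1.38 with an exact 95% interval of 0.594 to 3.33 that covers counting error only. The corresponding ratio was 0.777 (0.332 to 1.78) for GB20 vs. MOG and 0.779 (0.324 to 1.82) for GV16 vs. MOG. A change in Plau of the size seen in Plat lay within each of these intervals and was not detectable at this depth.

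Plaur, on the plus strand of chr7:24462484-24475968 with 6 transcripts and 2617 exonic bases, was as low as its ligand. Each SHAM library held 3 counts, the MOG libraries held 2, 8 and 1, the GB20 libraries 6, 2 and 1, and each GV16 library held 1. All GV16 libraries were thus below all SHAM libraries, an order that 7.6% of the genes tested showed in this comparison, and the difference was 2 counts. The summed counts of 11 in MOG and 9 in SHAM gave a ratio of 1.24 with an exact 95% interval of 0.467 to 3.39. For GV16 vs. SHAM, 3 counts against 9 gave a ratio of 0.359 with an interval of 0.0626 to 1.44. When the filter on low counts was omitted, the edgeR test of Plaur in this comparison had an adjusted p of 0.792, and no comparison of Plau or Plaur passed.

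Serpini1, the neuroserpin gene, is on the plus strand of chr3:75557547-75643495, with 4 transcripts and 7286 exonic bases that overlap no other gene. The SHAM libraries lay at 10.3, 9.71 and 9.66 FPKM and the MOG libraries at 9.52, 9.70 and 9.04 FPKM. The GB20 libraries lay at 10.03, 9.57 and 9.71 FPKM and the GV16 libraries at 10.1, 9.67 and 9.997 FPKM. The groups overlapped, and the SD within a group was 0.224 to 0.342 FPKM. The log2 fold change, MOG vs. SHAM, was -0.07 with an interval of -0.21 to 0.07 (adjusted p = 0.690 by edgeR), the lower end of which is a level 1.16-fold below that of SHAM.

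Against MOG, Serpini1 differed by 0.05 in GB20 (95% interval -0.09 to 0.19, adjusted p = 0.873 by edgeR) and by 0.07 in GV16 (-0.07 to 0.21, adjusted p = 0.998 by edgeR), both on the log2 scale. With 1107 to 1439 counts per library, this gene had the narrowest intervals of the 3 tested members.

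Serpine2, the gene of protease nexin-1, is on the minus strand of chr1:79794197-79861180, with 6 transcripts and 8287 exonic bases without overlap. The SHAM libraries lay at 8.35, 7.94 and 7.27 CPM and the MOG libraries at 6.996, 7.005 and 7.21 CPM. All MOG libraries were below all SHAM libraries, an order that 8.34% of all genes tested showed in this comparison, and the gap was small beside the SD of 0.548 CPM within SHAM. The log2 fold change was -0.15 with an SE of 0.15 (adjusted p = 0.698 by edgeR). The GB20 libraries, at 7.16, 8.21 and 6.64 CPM, and the GV16 libraries, at 8.13, 6.49 and 5.64 CPM, spread across both. Serpine2 vs. MOG was 0.05 in GB20 (95% interval -0.25 to 0.36) and -0.07 in GV16 (-0.38 to 0.25) on the log2 scale, and its adjusted p was at least 0.638 in all 6 comparisons.

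The ratio of Plat to its inhibitor Serpini1 within each library, both in FPKM, restates these levels without dependence on library scaling. It was 0.147, 0.160 and 0.183 in SHAM and 0.297, 0.318 and 0.359 in MOG. It was 0.170, 0.206 and 0.163 in GB20 and 0.164, 0.192 and 0.194 in GV16. The 3 MOG libraries had the highest ratios of all 12, and in every library the transcript of the inhibitor was the more abundant.

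The rest of the system was read from a list of 54 other genes grouped by role, of which 39 were tested. In MOG vs. SHAM, 2 of the 39 were called higher, A2m and Serping1, and 1 was called lower, Mmp9. Of all genes tested, 1.34% were called in this comparison and 0.568% were called higher. At an unadjusted p under 0.05 by edgeR there were 10 of the 39, beside 2380 of all 18299 genes. The median log2 fold change of the 39 genes was 0.10, against -0.002 over all genes tested. In GB20 vs. MOG and in GV16 vs. MOG 0 of the 39 were called by edgeR on the 12 libraries. At an unadjusted p under 0.05 there were 3 and 4 of the 39, beside 1464 and 969 of all 18299 genes, and the medians were -0.09 and -0.08 against 0.0008 and 0.002 over all genes. Other fits called 1 in GB20 vs. MOG, Lrp1, the gene of an endocytic receptor for tPA. Its log2 fold change was -0.30 with an adjusted p of 0.273 by edgeR on the 12 libraries. The adjusted p was 0.0118 by DESeq2 and 0.0416 by edgeR on the 6 libraries, 0.0264 by edgeR with low counts left unfiltered and 0.0299 by edgeR with the replicate number as a block. The other 19 of 23 alternative fits did not call Lrp1, among them both with an offset for gene length. Lrp1 has 17717 exonic bases. Over all genes tested, log2 fold change and gene length had a Spearman correlation of -0.197 in GB20 vs. MOG, and of 0.0268 with the offset. The part of length in the value of Lrp1 was not tested. In GB20 vs. GV16 0 were called by edgeR, and 5 of the 39 had an unadjusted p under 0.05, beside 536 of all genes.

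Plasminogen itself was nearly absent as a transcript. The SHAM libraries held 1, 3 and 3 Plg counts, the MOG libraries 1, 1 and 2, the GB20 libraries 0, 2 and 2, and the GV16 libraries 1, 2 and 1. Plasminogen is made chiefly by the liver and reaches tissues through the blood, and 11.3% of the exonic bases of Plg overlap Slc22a3 on the other strand. Of 11 tested genes for receptors and binders at the cell surface, 0 were called in any comparison by edgeR on the 12 libraries. Lrp1 was called in GB20 vs. MOG in 4 of 23 alternative fits, given above. The most abundant of them was Vtn, which encodes vitronectin, a matrix protein that the uPA receptor binds. Vtn lay at 395 to 466 FPKM in SHAM and 352 to 381 FPKM in MOG, without overlap, and its log2 fold change was -0.21 with an adjusted p of 0.234 by edgeR. All MOG libraries were below those of SHAM for 1 of the 11 genes and for 8.34% of all genes tested.

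Among other inhibitors of the list, 7 of 11 genes were tested. Serpinb2, a serpin gene whose product inhibits uPA, had 2 counts in all 12 libraries together. Serpinb8, another serpin gene, had 45, 26 and 33 counts in the SHAM libraries, 21, 21 and 12 in those of MOG, 13, 13 and 9 in those of GB20 and 22, 9 and 17 in those of GV16. Every SHAM count was above every other count. All libraries were below those of SHAM for 8.34% of all genes tested in MOG and for 7.6% in GV16. In GB20 vs. SHAM its log2 fold change of -1.59 had an adjusted p of 0.0503 by edgeR, and it was called without the filter (0.00242), by DESeq2 on the 12 libraries (0.0367), with the replicate block (0.0248), with an offset for gene length (0.0352) or both (0.0209), and without SHAM replicate 2 (0.0252), GV16 replicate 1 (0.0368) or GV16 replicate 2 (0.0431). In MOG vs. SHAM it was -0.92 (adjusted p = 0.225 by edgeR).

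A2m, which encodes alpha-2-macroglobulin, a broad protease trap that takes up plasmin, lay at 0.965, 0.972 and 0.782 FPKM in SHAM and at 2.20, 3.02 and 2.55 FPKM in MOG. The groups were apart, in an order that 7.87% of all genes tested showed. The log2 fold change was 1.51 with an SE of 0.26 (adjusted p = 0.0117 by edgeR). The call was lost without SHAM replicate 1, 2 or 3, at adjusted p of 0.0655, 0.113 and 0.0521, and without MOG replicate 3, at 0.0576. It was also lost by limma on log2(FPKM + 1), at 0.0642 with the filter and 0.124 without it. In GB20 A2m lay at 1.69, 2.14 and 1.84 FPKM. In GV16 it lay at 1.34, 1.37 and 2.81 FPKM, where replicate 3 was within the range of MOG and the other 2 were not. By edgeR on the 12 libraries neither needled group was called against MOG or against SHAM, with log2 fold changes vs. SHAM of 1.06 and 1.02 and adjusted p of 0.146 and 0.135. Against SHAM both were called by edgeR with low counts left unfiltered (adjusted p 1.09e-07 in GB20 and 3.41e-07 in GV16), by DESeq2 on the 12 libraries (0.00126 and 0.00171) and by DESeq2 on the 6 libraries (7.78e-06 and 0.0110), and GB20 was called by edgeR on the 6 libraries (0.00311). Without GV16 replicate 3, A2m was called in GV16 vs. MOG (log2 fold change -0.94, adjusted p = 0.0117 by edgeR) and in GB20 vs. SHAM (1.06, adjusted p = 0.000527 by edgeR), and without GV16 replicate 1 in GV16 vs. SHAM (1.203, adjusted p = 0.0368 by edgeR).

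Serping1, which encodes the C1 inhibitor of complement and contact phase proteases, was the most abundant inhibitor gene of the list. It lay at 2.58, 3.06 and 2.20 FPKM in SHAM, 4.03, 4.57 and 4.66 FPKM in MOG, 4.33, 4.99 and 3.81 FPKM in GB20 and 3.67, 2.93 and 4.53 FPKM in GV16. The MOG and GB20 libraries were all above the SHAM libraries. In MOG vs. SHAM 7.87% of all genes tested showed this order. Its log2 fold change was 0.76 in MOG vs. SHAM (SE 0.16, adjusted p = 0.0152 by edgeR), -0.01 in GB20 vs. MOG and -0.25 in GV16 vs. MOG. It was called in GB20 vs. SHAM as well, at 0.74 with an adjusted p of 0.0455, and how its response differs from that of Plat was not tested. The call in MOG vs. SHAM was lost in 7 of 23 alternative fits. These were limma on FPKM (adjusted p 0.127 to 0.198) and the edgeR fits without SHAM replicate 1 (0.0677), SHAM replicate 3 (0.0539), MOG replicate 2 (0.0904) or MOG replicate 3 (0.101). The call in GB20 vs. SHAM was lost in 10 of 23 alternative fits, among them those without SHAM replicate 1 (0.212) or 3 (0.138), MOG replicate 2 (0.0704) or 3 (0.0704) and GB20 replicate 1 (0.196) or 2 (0.169).

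Of contact phase proteases and fibrinogen, 2 of 7 genes were tested and 0 were called. The more abundant was F11, the gene of coagulation factor XI, at 21 to 65 counts per library, with a log2 fold change of 0.45 in MOG vs. SHAM (adjusted p = 0.476 by edgeR) and of -0.81 in GV16 vs. MOG (adjusted p = 0.604 by edgeR). In the thrombin branch, which Serpine2 also inhibits, 7 of 11 genes were tested and 0 were called in any comparison. Its most abundant gene, F2r, which encodes the thrombin receptor PAR1, had a log2 fold change of 0.005 in MOG vs. SHAM (95% interval -0.23 to 0.24).

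Of 12 tested substrates and partners of tPA or plasmin, edgeR on the 12 libraries called 1, Mmp9, which encodes a gelatinase that plasmin can activate. It lay at 4.29, 4.50 and 4.25 FPKM in SHAM and 2.92, 2.93 and 3.14 FPKM in MOG, without overlap, an order that 8.34% of all genes tested showed. Mmp9 fell by 0.54 on the log2 scale in MOG vs. SHAM (SE 0.13, adjusted p = 0.0400 by edgeR) and by 0.58 in GV16 vs. SHAM (adjusted p = 0.0413 by edgeR). In GB20 vs. SHAM the value was -0.57 (adjusted p = 0.0632 by edgeR). There it was called by edgeR without the filter (0.00384), with the block (0.0341), with the length offset (0.0421) or both (0.0280), by DESeq2 on the 12 libraries (0.0277), and without GB20 replicate 2 (0.0464) or GV16 replicate 1 (0.0374). Against MOG the value was -0.03 in GB20 and -0.04 in GV16. The call in MOG vs. SHAM was lost in each limma fit (adjusted p 0.174 to 0.250) and without SHAM replicate 1 or 2 (0.115 and 0.0905). It was also lost without MOG replicate 1, 2 or 3 (0.109, 0.210 and 0.134) or GB20 replicate 3 (0.0525). The call in GV16 vs. SHAM was lost in 13 of 23 alternative fits. These included the fits without SHAM replicate 1 or 2 (0.132 and 0.0839), MOG replicate 1, 2 or 3 (0.0504, 0.0666 and 0.0652), GB20 replicate 3 (0.0546) and GV16 replicate 2 or 3 (0.203 and 0.303). Grin1, the NMDA receptor subunit that tPA can cleave, was the most abundant gene of this role, at 5.74 to 6.21 FPKM in SHAM and 4.89 to 5.54 FPKM in MOG, and was not called by edgeR on the 12 libraries (log2 fold change -0.20, adjusted p = 0.305). With the length offset and the block together it was called lower in MOG vs. SHAM (-0.26, adjusted p = 0.0415 by edgeR). In GB20 vs. SHAM Grin1 was -0.33 (adjusted p = 0.103 by edgeR) and was called without the filter (0.0223), with the block (0.0189) and with the block and the length offset (0.0100). Grin1 shares 13.5% of its exonic bases with a gene on the other strand.

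**Figure D3:**
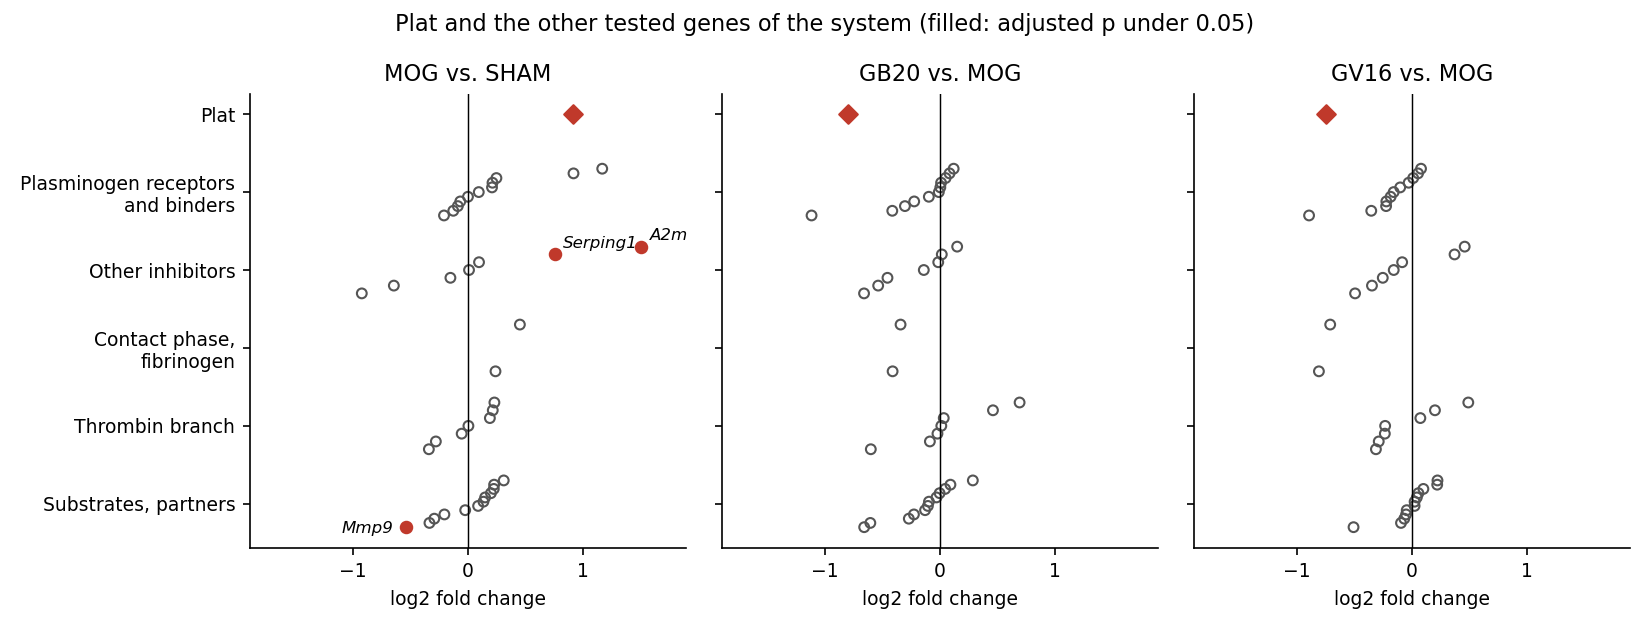
Log2 fold changes (x axis) of Plat (diamond) and of the 39 other tested genes of the system (circles), by role (y axis), with a panel each for MOG vs. SHAM and for GB20 and GV16 vs. MOG. Filled symbols had an adjusted p under 0.05, which were Plat in each panel and A2m, Serping1 and Mmp9 in the panel of MOG vs. SHAM.

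Across the 12 libraries, the genes whose log2 CPM followed that of Plat most closely among 16050 genes with a mean of at least 1 CPM were Mmp14 (Pearson r = 0.943), Myo10 (r = 0.941) and Aqp5 (r = 0.921). The points share their libraries and the 4 group means, so r is given as a description. Mmp14, which encodes a membrane-anchored matrix metalloproteinase, averaged 13.6 CPM in SHAM, 22.2 in MOG, 12.7 in GB20 and 13.5 in GV16. Myo10, which encodes the filopodial motor myosin-X, averaged 66.4, 92.6, 72.7 and 71.2 CPM in the same order. Aqp5, which encodes a water channel, averaged 1.84, 3.55, 2.14 and 2.33 CPM. In all of them each MOG library was above each of the other 9. They were picked for likeness to Plat, which has this order too, so it is not a separate result.

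**Figure D4:**
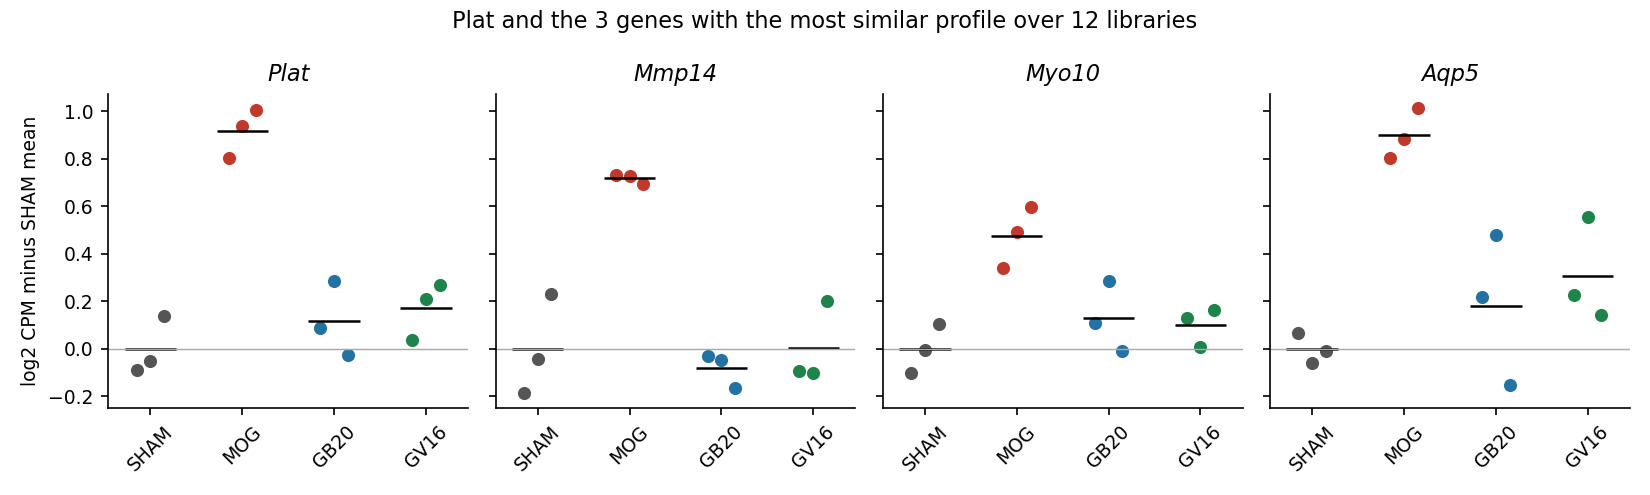
Log2 CPM minus the SHAM mean (y axis) for Plat, Mmp14, Myo10 and Aqp5 in each library of the 4 groups, with group means as bars. MOG libraries are the highest in each panel, at 0.80 to 1.005 for Plat, and GB20 and GV16 libraries lie below them in their own panel, between -0.16 and 0.56 over the 4 genes.

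The closest profiles to Serpine2 were those of Cpne8 (r = 0.961), Bckdhb (r = 0.924) and Cbln1 (r = 0.893). For Serpini1 they were Jazf1 (r = 0.912), R74862 (r = 0.842) and Rnf146 (r = 0.842). No profile was sought for Plau and Plaur, whose counts were too low.

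Several marker lists also differed between MOG and SHAM, and not all of them followed Plat in the needled groups. The summed level of 5 markers of astrocytes and gliosis was 29.2 to 30.5 FPKM in SHAM and 50.8 to 57.8 in MOG. It was 40.7 to 47.5 in GB20 and 36.9 to 47.4 in GV16. In MOG vs. SHAM 3 of the 5 (Gfap, Aqp4 and Serpina3n) were called higher, beside 0.568% of all genes tested. Of these, Aqp4 was also lower in both needled groups than in MOG, at -0.35 in GB20 (adjusted p = 0.0293 by edgeR) and -0.34 in GV16 (adjusted p = 0.0472 by edgeR). It was the 1 of the 5 called in each, where 0.24% and 0.164% of all genes were called. Log2 fold changes of the 5 vs. MOG ran from -0.40 to 0.02 in GB20 and from -0.50 to 0.59 in GV16, with 4 negative in each. The sum of 8 microglial and macrophage markers was 7.01 to 10.8 FPKM in SHAM, 13.8 to 16.3 in MOG, 12.6 to 16.7 in GB20 and 13.3 to 15.1 in GV16, with 2 of 8 called higher in MOG vs. SHAM and 0 of 8 called in either needled group vs. MOG. Ganglion cell markers summed to 247 to 279 FPKM in SHAM, 150 to 173 in MOG, 186 to 191 in GB20 and 146 to 201 in GV16. The part of these lists in the result for Plat was not tested.

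Vessels are a known source of tPA. The sum of 7 endothelial markers was 32.0 to 37.0 FPKM in SHAM, 35.3 to 38.1 in MOG, 31.4 to 33.4 in GB20 and 27.8 to 35.2 in GV16. MOG overlapped SHAM, and every MOG library was above every needled library. The median log2 fold change of the 7 markers was 0.11 in MOG vs. SHAM and -0.14 in each needled group vs. MOG. All libraries were below those of MOG for 3 markers in GB20 and 2 in GV16. Of all genes tested, 7.71% and 6.45% showed that order. By edgeR, 0 of 7 were called in any comparison. Likewise 0 of 4 pericyte and smooth muscle markers were called in any comparison. Of 5 Muller cell markers 0 were called in MOG vs. SHAM or in either needled group vs. MOG. In GV16 vs. SHAM 1 of the 5 was called lower, where 0.656% of all genes were called. Markers of pigment epithelium and choroid, which lie outside the neural retina, summed to 6.38 to 10.2 FPKM in SHAM, 13.2 to 16.7 in MOG, 14.3 to 16.6 in GB20 and 7.17 to 21.4 in GV16, with 0 of 5 tested markers called. T cell markers were near 0, the 4 genes summing to at most 0.351 FPKM. Of lens, erythrocyte and oligodendrocyte markers 1, 3 and 3 were tested and 0 were called in any comparison. The part of all these cells in the result for Plat was not tested.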

How the data were processed

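Retinal RNA of 12 mouse samples (SHAM, MOG, GB20 and GV16, 3 libraries each, grouped by their labels) had been enriched for polyadenylated RNA and sequenced in pairs. The authors aligned the reads with HISAT2, counted them per gene with FeatureCounts and deposited raw counts. The submitters' processing notes name HISAT2 2.0.5 and the mouse build mm10. The authors also deposited FPKM values made from the counts and the gene length. The sources used here do not give the strand setting, the annotation release or the rule for multi-mapped reads. For 33576 of 34538 genes with counts, the gene length implied by the deposited values equalled the merged exon length of GENCODE vM21 (GRCm38) within 1 base, and symbols and coordinates came from there.

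The test was the quasi-likelihood F test of edgeR 4.0.16 in R 4.3.3. After its expression filter (18299 genes) and TMM scaling, a single robust fit of group means took in the 12 libraries. Calls had a Benjamini-Hochberg adjusted p under 0.05 over all genes tested. The 6 comparisons followed from the 4 groups, of which the study itself made the one of MOG with SHAM and those of each needled group with MOG. Ratios of low counts were given exact 95% binomial intervals on the summed counts. These cover counting error only. The fits were tested on simulated data. The members, lists and rules for named genes were chosen with earlier results of these data known. The named genes were the 5 members, Plg, every list gene called in any comparison, the most abundant gene of each role and the 3 most similar profiles of each tested member. A further gene of this rule is not reported here. Serpinb2, Serpinb8, Lrp1, Aqp4, Gfap and Serpina3n were named after their values were seen. Alternatives were no filter on low counts, DESeq2 1.42.0 (size factors, and fits on 12 or 6 libraries), edgeR on 6 libraries, a replicate block, an offset for gene length, limma 3.58.1 on log2(FPKM + 1) or log2(FPKM + 0.1), and leaving out each library.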

Additional observations from a re-analysis of the deposited data

How the results depend on the processing

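Each of 18 values (3 tested members in 6 comparisons) was recomputed in 23 alternative fits. Plat in MOG vs. SHAM was called in all 23, with a log2 fold change between 0.64 and 0.99 and an adjusted p between 8.33e-10 and 0.0244. Over the 3 calls of Plat, 62 of 69 alternative values stayed past the threshold and 0 changed sign. The others came from limma on FPKM and from 1 left-out library. In GB20 vs. MOG limma gave -0.56 on log2(FPKM + 1), -0.77 on log2(FPKM + 0.1) and -0.56 without a filter, and 0 members were called in these fits. In GV16 vs. MOG it gave -0.52, -0.72 and -0.52, also with 0 called. Adding 1 to levels of 1.51 to 3.24 FPKM makes any log2 difference of Plat smaller by arithmetic. Values on log2(FPKM + 1) are therefore not comparable in size with those of the count fits, in MOG vs. SHAM as well. Leaving out each library in turn gave 0.87 to 0.99 for MOG vs. SHAM, -0.89 to -0.74 for GB20 vs. MOG and -0.80 to -0.68 for GV16 vs. MOG, with 0 to 1 members called in the last. Over the alternative fits 12 values near 0 changed sign, 1 of Plat and 11 of the serpins, and 0 alternative values of the serpins passed the threshold. With an offset for gene length, Serpini1 was 0.00212 in GB20 vs. GV16 and -0.0129 in GV16 vs. SHAM, and with the offset and the replicate block 0.00122 and -0.0121. With a library left out, Plat in GB20 vs. GV16 ranged from -0.141 to 0.0126, Serpine2 from -0.0333 to 0.114 in GB20 vs. MOG and from -0.221 to 0.0509 in GV16 vs. MOG, and Serpini1 from -0.0431 to 0.0102 in GB20 vs. SHAM and from -0.0138 to 0.0303 in GV16 vs. SHAM.

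Correlations of the deviations of same-numbered libraries were -0.0966 to 0.286 and in no comparison above 0.1 for all 3 numbers, so the numbers were not taken to pair them. The experiment was done 3 times, and whether a number marks one of these rounds is not given in the sources used here. Every library correlated best with its own number in GB20 vs. SHAM and GV16 vs. SHAM (6 of 6), as a hint from the data. Both of these comparisons use the same SHAM libraries. In GB20 vs. GV16, however, 0 of 6 did so, beside 1 in GB20 vs. MOG, 2 in MOG vs. SHAM and 4 in GV16 vs. MOG. With the replicate block Plat was 0.92, -0.80 and -0.75 in the 3 called comparisons, all still called, and no other member passed. Of the list genes, the block changed the calls of Lrp1, Serpinb8, Mmp9 and Grin1 given with those genes. Calls over all genes rose from 245 to 404, 44 to 73 and 30 to 47 in these comparisons, and from 63 to 182 and 120 to 236 in GB20 vs. SHAM and GV16 vs. SHAM, and stayed at 1 in GB20 vs. GV16.

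Counts over the 39 list genes were less stable. In MOG vs. SHAM 4 were called with the length offset and the block, limma called 0, 1 and 0, and 0 to 3 were called when a library was left out. In GB20 vs. MOG 1 was called without a filter, by DESeq2 and edgeR on 6 libraries and with the block, and in GV16 vs. MOG 0 to 1 when a library was left out. In GB20 vs. SHAM the count was 5 without a filter, 4 and 2 by DESeq2 on 12 and 6 libraries, 4 with the block, 3 and 4 with the length offset alone and with the block, 0 in each limma fit and 0 to 3 with a library left out. In GV16 vs. SHAM it was 3 without a filter, 2 by DESeq2 on 12 libraries, 0 by edgeR on 6 libraries, 0 in each limma fit and 0 to 2 with a library left out. The cause was not tested.

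Depth limits the 2 rarest members. At 1 to 8 counts a library, the exact interval of Plau in MOG vs. SHAM reached from 0.594 to 3.33.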
